A study of Mus musculus with 10 samples.

Results

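The glutathione and peroxide defence enzymes were followed in gonadal white adipose tissue of mice with a tamoxifen-inducible, adipose-specific knockout of Med19, a subunit of the Mediator complex. The genes were chosen by name among the protein-coding rows of the gene table. They comprise the glutathione S-transferases (GST), the microsomal GSTs, the glutathione peroxidases, the peroxiredoxins, the superoxide dismutases, catalase, and 8 enzymes or carriers of glutathione synthesis, thioredoxin, quinone and haem chemistry (Gsr, Gclc, Gclm, Gss, Txn1, Txnrd1, Nqo1 and Hmox1). These are 55 gene identifiers of 40503 in the table and carry 52 symbols, since Gstp1, Gstp2 and Gstp3 are each listed under 2 identifiers. The name pattern also took Gstcd, a protein with a GST-like C-terminal domain that is not a classical transferase. In all, 42 of the 55 reached 0.5 RPKM (reads per kilobase of gene, scaled to library size) in at least 5 of the 10 libraries and were tested. The 13 others, which are not described further unless stated, were Gsta1, Gsta2, Gstm3, Gstt4, the 6 Gstp identifiers, Gpx2, Gpx5 and Gpx6.

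PolyA RNA was sequenced from 5 Med19-iAKO and 5 WT female C57BL/6 mice aged 12 weeks. The labels give tamoxifen at 100 mg/kg for 5 days and harvest 14 days later for the Med19-iAKO mice. The sources used here do not give the Cre driver, whether the WT mice were also injected, or whether they carry floxed alleles. Each library is named by its group and animal number, and each title bears its own animal number, with no litter or batch stated.

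Depth ran from 14460052 reads in WT 86 to 20206351 in KO 4, as worked out from the RPKM values. Med19 RNA was 6.79 ± 0.85 RPKM in KO and 6.70 ± 0.89 RPKM in WT libraries (SD, n = 5 each; 2-sided exact permutation p = 0.881). Since the level of Med19 gives no check of the grouping, the first group is called KO-labelled, and all directions rest on the labels. At an adjusted p under 0.05 (limma), 681 of all 17038 tested genes were called higher in the KO-labelled group and 332 lower. The split of calls depended on scaling, with 102 higher and 414 lower under median-ratio scaling and 149 and 392 under quantile normalization. Without scaling, all tested genes had a median log2 change of 0.09.

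Glutathione is a small thiol that cells use to reduce peroxides and to tag reactive compounds. It is made by glutamate-cysteine ligase and glutathione synthetase and is regenerated by glutathione reductase with NADPH. Superoxide dismutases turn superoxide into hydrogen peroxide, which catalase, glutathione peroxidases and peroxiredoxins remove, while GSTs couple glutathione to electrophiles such as the lipid aldehydes formed in fat. Many of these genes are known targets of the transcription factor NRF2, which binds the antioxidant response element.

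The test called 6 of the 42 enzyme genes, of which 1 was higher and 5 were lower in the KO-labelled group. Gstt1, a theta-class GST, rose, and the microsomal GSTs Mgst3 and Mgst2, catalase (Cat), the zeta-class GST Gstz1 and the cytosolic superoxide dismutase Sod1 fell. The higher call is 2.38% of the tested members, against 4.00% of all tested genes called higher. The lower calls are 11.9% of the members, against 1.95% of all tested genes called lower. The median log2 change of the 42 genes was 0.10, beside 0.09 for all tested genes, and 27 of 42 changes (64.3%) were above 0, against 68.7% of all tested genes. Most of the set therefore lay near the median of all genes, with a few members of different families away from it, as the plot of changes by family shows. The enzyme calls numbered 1 higher and 5 lower under median-ratio scaling, where 0.599% and 2.43% of all genes were called, and 1 and 4 under quantile normalization, where 0.875% and 2.30% were. With 1 library left out at a time, 2 to 4 enzyme genes were called lower, where 394 to 1003 genes were called in all. With WT 86 and WT 89 both left out, 0 were, where 211 genes were called in all. The lower calls of Mgst2, Gstz1 and Sod1 were lost in 9, 8 and 15 of 20 other fits.

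**Figure D1:**
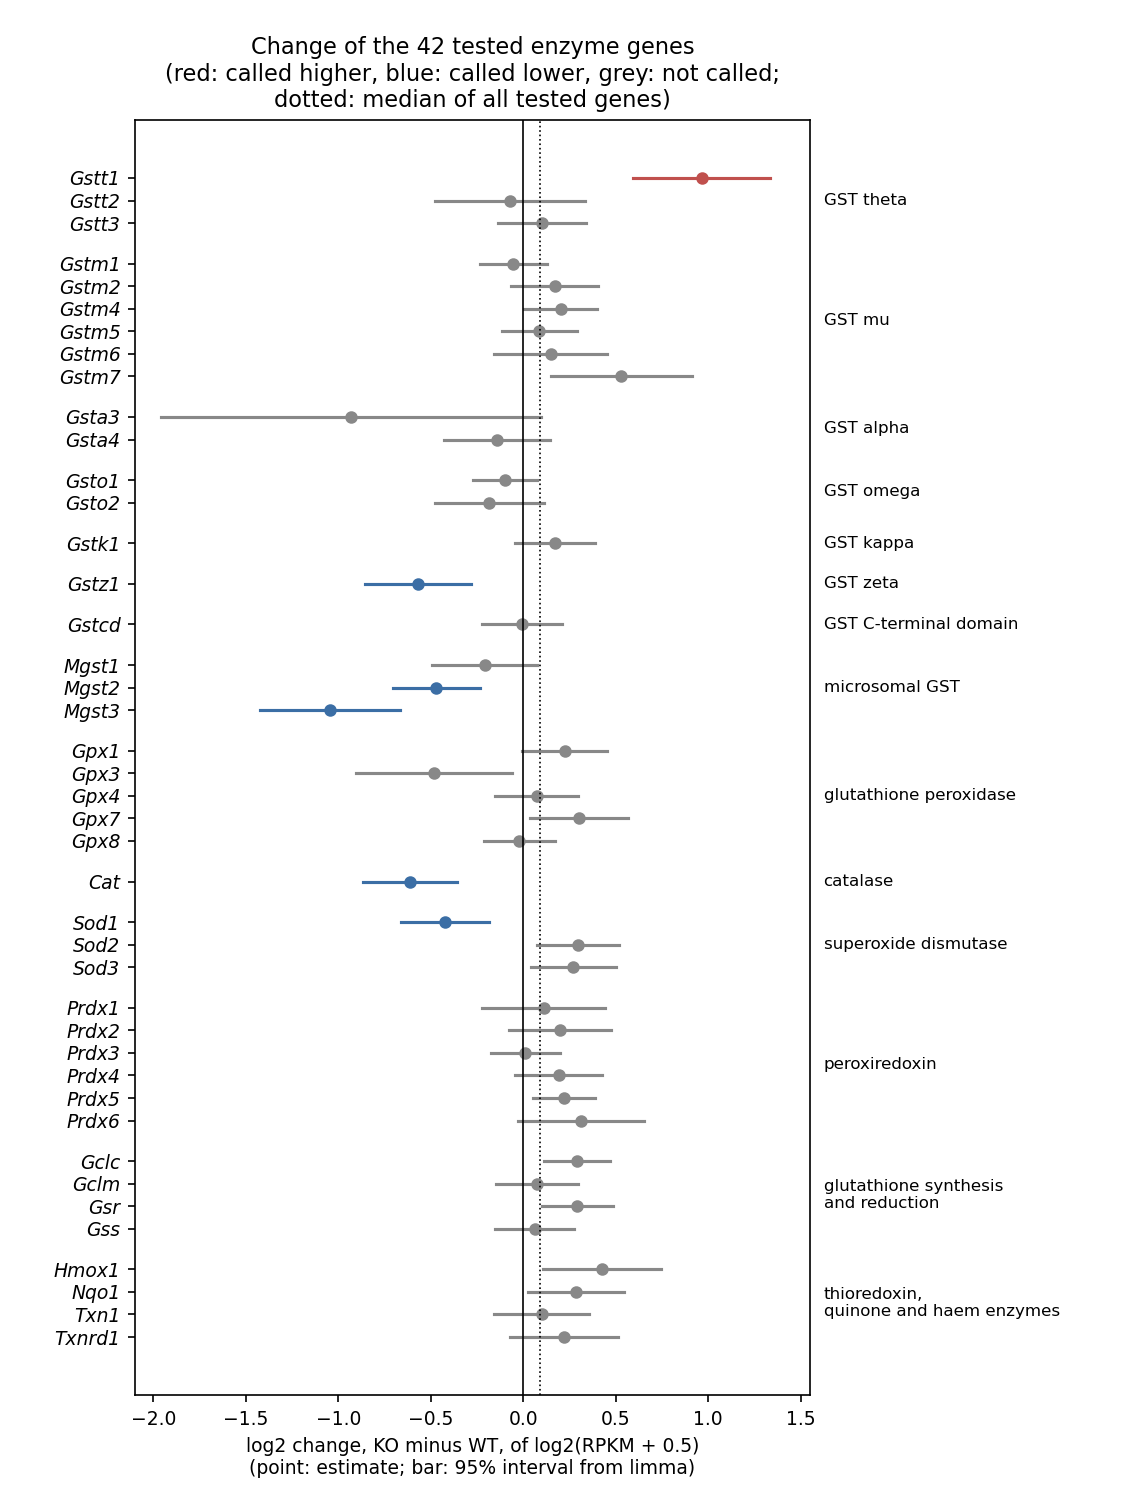
The log2 change of KO-labelled against WT libraries, on the log2(RPKM + 0.5) scale, for the 42 tested enzyme genes grouped by family, as limma's estimate with its 95% interval. Gstt1 (0.96) is the gene called higher in red, the 5 genes called lower are in blue, and the dotted line is the median of all tested genes (0.09).

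The groups of Gstt1, Mgst3, Mgst2, Cat, Gstz1 and Sod1 did not overlap in any of the 6. Among the 42 genes, every KO-labelled library lay above every WT library in 2 (Gstt1 and Gclc) and below in 5. Of all tested genes, 6.96% had every KO-labelled library above and 2.15% below. Adipocyte marker genes moved in the same libraries. Of 16 such markers, 14 were called lower, and their summed level was 5986 to 6303 RPKM in the KO-labelled and 14536 to 20888 RPKM in the WT libraries, with none of the 16 at 0. Neutrophil and monocyte markers, 4 of 12 called higher, summed to 501 to 886 RPKM against 228 to 422 RPKM. Of the 12 macrophage markers 1 was called higher, of the 6 tested mast cell markers 4 were called higher and 1 lower, and none of the 5 tested erythroid markers was called. Fibroblast and progenitor markers had 2 of 12 called higher and endothelial markers 1 of 11 lower, while 0 of 9 mesothelial and 0 of 5 ovary, oviduct and uterus markers were called. Of all tested genes 4.00% were called higher and 1.95% lower. Under median-ratio scaling the adipocyte markers called lower stayed at 14, while the higher calls came to 2 of the neutrophil and monocyte, 2 of the mast cell, 0 of the macrophage and 0 of the fibroblast and progenitor markers. Their part in the enzyme results was not tested, and in bulk tissue fewer cells of a type and less RNA per cell cannot be told apart.

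**Figure D2:**
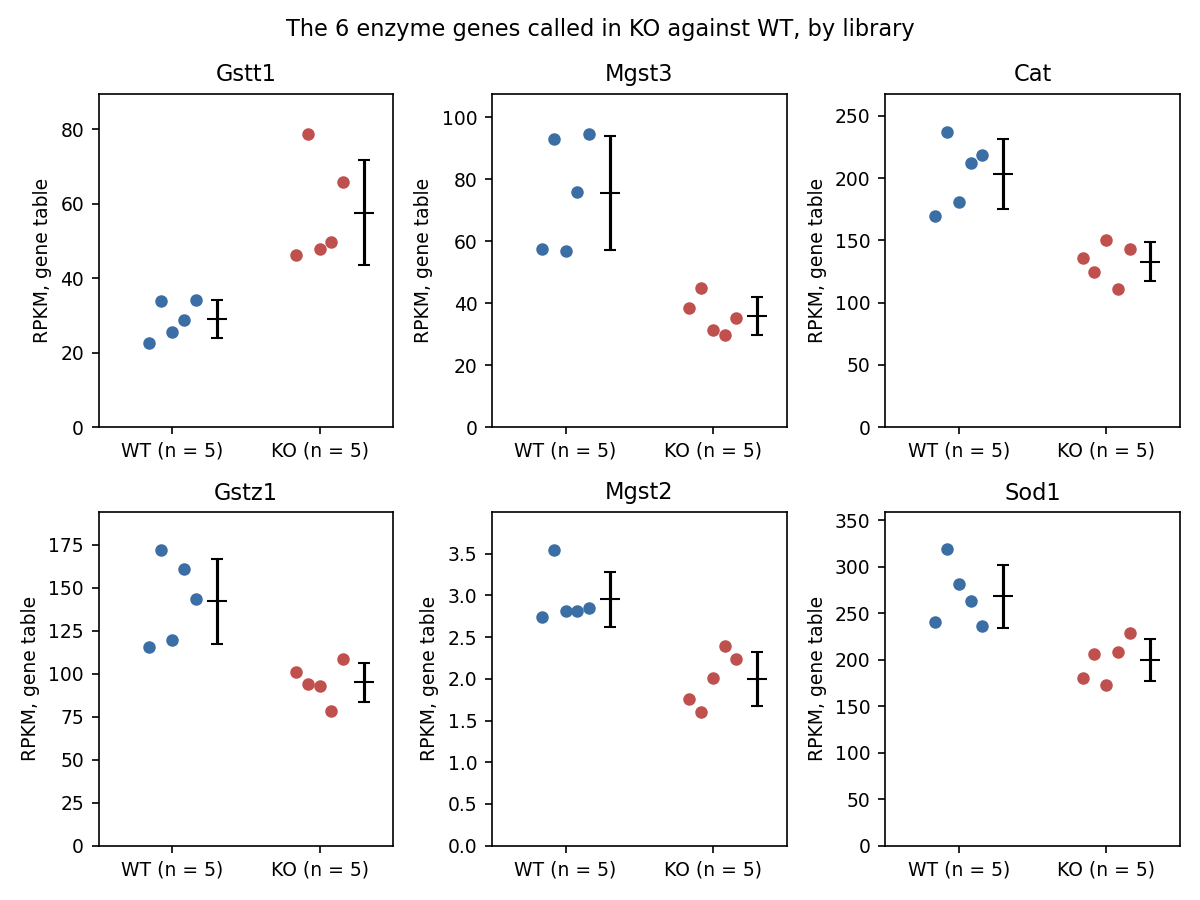
RPKM of the 6 called enzyme genes in each library (points, n = 5 a group), with mean ± SD as bars. Gstt1 is above and the other 5 genes are below the WT libraries in every KO-labelled library.

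Theta-class GSTs act on small halogenated and epoxide substrates. Gstt1 (ENSMUSG00000001663) was at 46.2, 78.7, 47.9, 49.7 and 65.8 RPKM in KO 1, KO 4, KO 7, KO 8 and KO 17. It was at 22.7, 34.0, 25.5, 28.9 and 34.2 RPKM in WT 2, WT 9, WT 19, WT 86 and WT 89. The lowest KO-labelled library, KO 1, thus lay above the highest WT library, WT 89. The mean was 57.7 ± 14.1 RPKM against 29.0 ± 5.1 RPKM (SD, n = 5 each), 1.99 times the WT mean, with a log2 change of 0.96 (SE 0.17, adjusted p = 0.0116). The call held under both scalings and with any single library removed, and was lost when WT 86 and WT 89, the animals with numbers above 20, were both left out (adjusted p = 0.0537), with a log2 change of 1.05 in that fit.

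In RefSeq's gene order Gstt3, Gstt1, Gstt4 and Gstt2 follow one another with no other protein-coding gene between them. The tested neighbours Gstt2 and Gstt3 were not called. Gstt2 was at 17.9 ± 4.8 RPKM against 18.5 ± 3.0 RPKM (log2 change -0.07, 95% interval -0.48 to 0.33). Gstt3 was at 4.25 ± 0.57 RPKM against 3.93 ± 0.53 RPKM (0.10, -0.14 to 0.34). Gstt4 was too low for the main fit, at 0.291 to 1.13 RPKM in the KO-labelled and 0.0699 to 0.609 RPKM in the WT libraries. Its groups overlapped, and its mean of 0.659 RPKM was 2.35 times the WT mean of 0.280 RPKM. The fit of the gene table without a filter on low values took in Gstt4 and did not call it. Gstt1 was the 1 enzyme gene called higher there. The low level of Gstt4 limits what this fit can show. In the limma fit on summed transcripts given below, Gstt4 was not called (log2 change 0.51, 95% interval 0.01 to 1.01, adjusted p = 0.288). To set the genes against each other without any scaling between libraries, the log2 ratio of their RPKM was taken within each library. This was done for 8 pairs chosen after the values were seen, most of them with a gene already called. Their p-values, here and below, are therefore descriptive, and the adjustment over the 8 pairs does not cover that choice. Gstt1 over Gstt2 was 1.21 to 1.98 in the KO-labelled and 0.25 to 0.98 in the WT libraries, and the mean differed by 1.05 on the log2 scale (2-sided exact permutation p = 0.0079, the smallest that 5 against 5 allows; 0.0106 adjusted over the 8 pairs). Gstt1 over Gstt3 differed by 0.86, also with no overlap (exact permutation p = 0.0079, adjusted 0.0106). Gstt1 and Gstt3 share 76.2% of their aligned coding bases and Gstt1 and Gstt2 62.8%, and their longest identical runs were 35 and 17 bases.

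Microsomal GSTs are membrane enzymes that conjugate and reduce lipid hydroperoxides, and they belong to the family that includes leukotriene C synthase. All 3 genes had negative changes and 2 were called lower. Mgst3 (ENSMUSG00000026688) was at 38.3, 45.0, 31.3, 29.7 and 35.1 RPKM in KO 1, KO 4, KO 7, KO 8 and KO 17. It was at 57.4, 92.9, 57.0, 75.8 and 94.6 RPKM in WT 2, WT 9, WT 19, WT 86 and WT 89. The highest KO-labelled library, KO 4, lay below the lowest WT library, and the WT libraries spread more widely. Mgst3 averaged 35.9 ± 6.1 RPKM against 75.5 ± 18.3 RPKM and fell by 1.04 on the log2 scale (SE 0.17, adjusted p = 0.00804), the lowest adjusted p of the 42 genes. It was called without each library in turn and under both scalings, and was lost with both WT 86 and WT 89 left out (log2 change -0.91, adjusted p = 0.0704).

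Mgst1, the most abundant microsomal GST, was at 185, 203, 173, 187 and 201 RPKM in the KO-labelled libraries in the same order. The WT values were 179, 293, 207, 191 and 241 RPKM, and the groups overlapped. Its log2 change was -0.21 (95% interval -0.49 to 0.08, adjusted p = 0.350). Within each library Mgst3 over Mgst1 was -2.65 to -2.17 on the log2 scale in the KO-labelled and -1.86 to -1.34 in the WT libraries, a difference of -0.85 (exact permutation p = 0.0079, adjusted 0.0106). Mgst3 was thus lower relative to Mgst1 in every KO-labelled library than in any WT library.

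Mgst2 (ENSMUSG00000074604) was at 1.76, 1.60, 2.01, 2.39 and 2.23 RPKM in the KO-labelled libraries and at 2.74, 3.54, 2.82, 2.82 and 2.85 RPKM in the WT libraries. The groups did not overlap, and WT 9 stood above the other WT libraries. Mgst2 fell by 0.47 on the log2 scale (SE 0.11, adjusted p = 0.0318). This call was lost in 9 of 20 other fits, 6 of which left out KO 1, KO 7, WT 9, WT 19, WT 86 or WT 89 (adjusted p from 0.0570 to 0.0799). Mgst2 over Mgst1 differed by -0.36 with overlapping groups (exact permutation p = 0.0317, adjusted 0.0317), and its p rose above 0.05 without KO 1, KO 4, WT 2, WT 19 or WT 86. In the transcript table most of the Mgst2 signal stood in a noncoding processed transcript, ENSMUST00000159400, at 15.3 ± 1.6 RPKM against 19.6 ± 2.8 RPKM. The protein-coding transcript ENSMUST00000099106 was at 0.346 ± 0.773 RPKM against 0.683 ± 0.879 RPKM.

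Gstz1 (ENSMUSG00000021033) encodes maleylacetoacetate isomerase, a step of tyrosine breakdown that uses glutathione. It was at 101, 94.3, 92.8, 78.2 and 109 RPKM in KO 1, KO 4, KO 7, KO 8 and KO 17. The WT values were 116, 172, 119, 161 and 144 RPKM in WT 2, WT 9, WT 19, WT 86 and WT 89. The groups did not overlap, though KO 17 and WT 2 lay close together. The mean was 95.02 ± 11.3 RPKM against 142 ± 25 RPKM, and the log2 value fell by 0.57 (SE 0.13, adjusted p = 0.0319). Removing any of KO 1, KO 7, KO 8, WT 89, WT 86 and WT 9 ended the call (adjusted p from 0.0575 to 0.0732), and its direction held in every fit run.

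Catalase breaks down hydrogen peroxide in peroxisomes. Cat (ENSMUSG00000027187) was at 136, 124, 150.1, 111 and 143 RPKM in KO 1, KO 4, KO 7, KO 8 and KO 17. It was at 169, 237, 180.5, 213 and 219 RPKM in WT 2, WT 9, WT 19, WT 86 and WT 89. Every KO-labelled library lay below every WT library. Cat averaged 133 ± 15 RPKM against 204 ± 28 RPKM and fell by 0.61 on the log2 scale (SE 0.11, adjusted p = 0.0164). The call held without each library in turn and under both scalings, and was lost with WT 86 and WT 89 both left out (log2 change -0.55, adjusted p = 0.125).

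The hexamer AGGTCA is the unit that PPAR and other nuclear receptors bind, and Cat is the only called enzyme gene with it in its RefSeq promoter window of 250 bases before and 50 after the start. The stretch is shown on the gene's strand, 5′ to 3′, with the hexamer in capitals, and lies at chr2:103485288-103485387 (minus strand, GRCm38.p6, RefSeq).
Cat: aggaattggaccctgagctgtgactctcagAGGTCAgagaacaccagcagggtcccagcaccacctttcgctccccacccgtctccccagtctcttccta
On either strand, 7 of the 45 enzyme symbols with a promoter entry (15.6%) held AGGTCA, against 18.1% of 27025 genes. The exact direct repeat of this hexamer with 1 base between, the PPAR response element, was found in 0 of the 45 and in 0.048% of all genes. A match of letters is a description and not a binding site.

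Glutathione peroxidases remove peroxides at the cost of glutathione, Gpx1 in the cytosol and mitochondria, Gpx3 in the extracellular fluid and Gpx4 on lipid hydroperoxides in membranes. None of the 5 tested genes was called. Gpx1, the enzyme gene with the highest RPKM in the gene table, was at 686, 965, 769.5, 774 and 758 RPKM in the KO-labelled and 739, 658, 691, 605 and 678 RPKM in the WT libraries. KO 4 was highest and the groups overlapped, with a log2 change of 0.22 (95% interval -0.01 to 0.45, adjusted p = 0.212). Gpx3 ranged from 231 to 398 RPKM in the KO-labelled and from 331 to 593 RPKM in the WT libraries (log2 change -0.48, 95% interval -0.91 to -0.06, adjusted p = 0.1495). Gpx7 (0.30), Gpx4 (0.07) and Gpx8 (-0.02) completed the family.

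Set against Gpx1 within each library, both Cat and Gpx3 were lower in the KO-labelled group. Cat over Gpx1 was -2.95 to -2.34 on the log2 scale in the KO-labelled libraries and -2.13 to -1.47 in WT, a difference of -0.84 with no overlap (exact permutation p = 0.0079, adjusted 0.0106). Gpx3 over Gpx1 differed by -0.71 with overlapping groups (exact permutation p = 0.0238, adjusted 0.0272), and its p rose to 0.0556 without WT 2, without WT 9 or without WT 89.

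Sod1 makes the copper and zinc superoxide dismutase of the cytosol, Sod2 the manganese enzyme of mitochondria and Sod3 the secreted enzyme. Sod1 (ENSMUSG00000022982) was at 180.5, 207, 173, 208 and 228 RPKM in KO 1, KO 4, KO 7, KO 8 and KO 17. The WT values were 241, 319, 281, 264 and 236 RPKM in WT 2, WT 9, WT 19, WT 86 and WT 89. The groups did not overlap, with KO 17 nearest to WT 89. Sod1 averaged 199 ± 22 RPKM against 268 ± 34 RPKM and fell by 0.43 on the log2 scale (SE 0.11, adjusted p = 0.0457). This call was lost in each of the 10 fits without a library (adjusted p from 0.0501 to 0.109) and under quantile normalization (0.0944), with the same direction throughout.

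The other superoxide dismutases had changes of opposite sign that did not pass the test. Sod2 was at 61.5 ± 8.6 RPKM against 49.8 ± 4.7 RPKM (log2 change 0.30, adjusted p = 0.105) and Sod3 at 41.1 ± 4.8 RPKM against 34.1 ± 4.4 RPKM (0.27, adjusted p = 0.142). Within each library Sod1 over Sod2 was 1.25 to 2.08 on the log2 scale in the KO-labelled and 2.13 to 2.68 in the WT libraries, a difference of -0.72 with no overlap (exact permutation p = 0.0079, adjusted 0.0106). Sod1 over Sod3 differed by -0.70, also with no overlap (exact permutation p = 0.0079, adjusted 0.0106). The ratio of Sod1 to each other isoform was thus lower in every KO-labelled library than in any WT library.

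**Figure D3:**
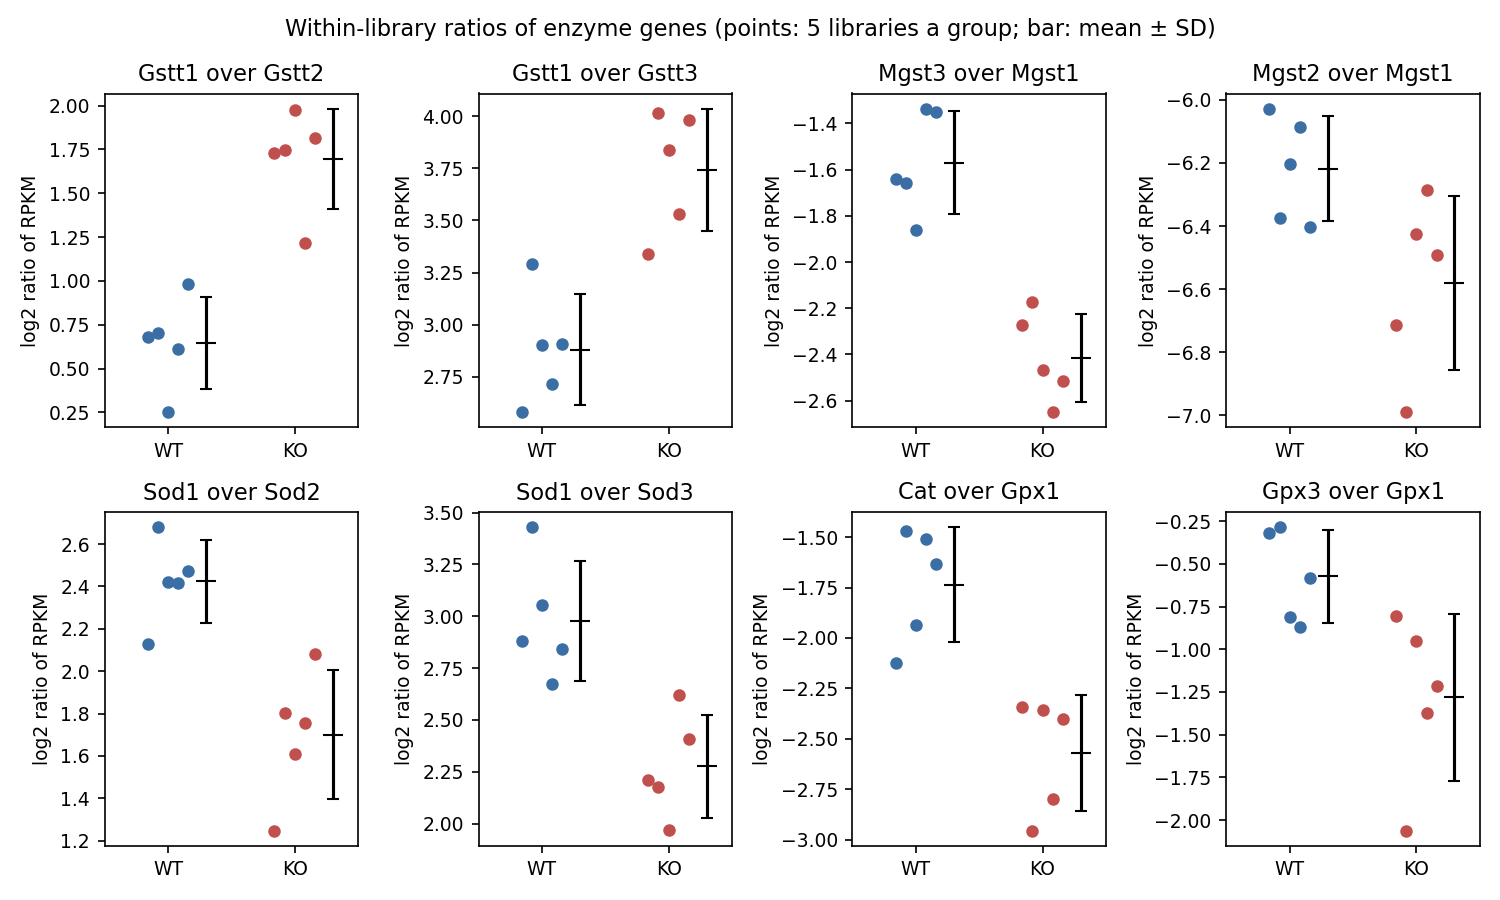
The log2 ratio of the RPKM of 2 enzyme genes within each library (points, n = 5 a group) with mean ± SD, for 8 pairs chosen after the values were seen. The groups do not overlap for 6 pairs and overlap for Mgst2 over Mgst1 and Gpx3 over Gpx1.

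Among the soluble GSTs of the other classes none was called. The mu class, which sits in a run of 7 neighbouring protein-coding genes (Gstm5, Gstm7, Gstm6, Gstm3, Gstm2, Gstm1 and Gstm4), is led by Gstm1, a broad detoxifying transferase. Gstm1 was at 61.8, 49.3, 51.0, 52.8 and 61.7 RPKM in the KO-labelled and 54.5, 56.3, 55.5, 63.8 and 56.2 RPKM in the WT libraries, with full overlap (log2 change -0.05, 95% interval -0.23 to 0.13). Gstm7 was at 1.81, 1.48, 1.36, 2.24 and 1.76 RPKM against 0.861, 0.979, 0.771, 1.81 and 0.919 RPKM. WT 86 alone reached the KO-labelled values, and Gstm7 was not called with it (log2 change 0.53, adjusted p = 0.0919) but was called without it (0.68, adjusted p = 0.0252). The other tested mu genes had log2 changes of 0.09 (Gstm5), 0.15 (Gstm6), 0.17 (Gstm2) and 0.20 (Gstm4). The mu genes share up to 89.4% of aligned coding bases (Gstm1 and Gstm3), so reads of the closest copies are uncertain.

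The alpha class conjugates lipid aldehydes, and Gsta4 is known for its activity on 4-hydroxynonenal. Gsta4 was at 12.4, 19.1, 13.8, 11.8 and 16.8 RPKM in the KO-labelled and 15.3, 18.4, 14.9, 17.3 and 15.0 RPKM in the WT libraries, and the groups overlapped (log2 change -0.14, adjusted p = 0.541). Gsta3 varied most between animals, from 2.43 to 10.8 RPKM in the KO-labelled and from 5.90 to 21.9 RPKM in the WT libraries. Its log2 change of -0.93 had a 95% interval of -1.96 to 0.10 (adjusted p = 0.245), so a fall as large as that of Mgst3 and no change were both within the interval.

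Further classes have their own chemistry, and their genes were not called. Gsto1, an omega-class thiol transferase, was at 19.0, 17.4, 15.8, 17.8 and 17.5 RPKM against 16.7, 21.5, 18.9, 17.1 and 19.8 RPKM (log2 change -0.10), and Gsto2 stood near 1 RPKM (-0.18). Gstk1, the kappa-class enzyme of mitochondria and peroxisomes, was at 14.5, 17.1, 17.4, 15.2 and 17.0 RPKM against 13.7, 17.4, 11.7, 15.0 and 14.2 RPKM (0.17). Gstcd was at 2.00, 2.43, 2.09, 1.99 and 2.24 RPKM against 2.40, 1.70, 2.45, 2.25 and 2.06 RPKM (-0.01). The groups overlapped for each of these genes.

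The pi class could not be read from the gene table. Gstp1, Gstp2 and Gstp3 were listed at 0 in all 10 libraries under both identifiers of each, whereas the transcript table listed Gstp1 at 99.3 RPKM in the KO-labelled and 87.4 RPKM in the WT libraries (group means), with the same values under both identifiers. Gstp2 was listed at 5.60 and 5.67 RPKM in that table, and Gstp3 at 0.369 and 0.329 RPKM. On the transcript values Gstp1 had a log2 change of 0.18 (SE 0.10, adjusted p = 0.402). Of the 66 protein-coding symbols with more than 1 identifier, 54 (81.8%) were at 0 in all libraries, against 12.6% of the 21428 symbols with 1 identifier. Why these genes were at 0 was not tested.

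Gstp1 and Gstp2 are also close copies of each other, with 98.1% identity over 630 coding bases and 300 identical bases in the longest run. The first 90 coding bases of each, from GENCODE M21 transcripts, are shown because they hold 6 of the 12 mismatches that separate the genes, here in capitals.
Gstp1: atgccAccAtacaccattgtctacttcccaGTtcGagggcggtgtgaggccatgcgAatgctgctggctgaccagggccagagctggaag
Gstp2: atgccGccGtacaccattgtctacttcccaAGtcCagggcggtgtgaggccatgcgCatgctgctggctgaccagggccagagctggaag
The split of reads between the 2 genes is uncertain for this reason. The zeros of the gene table fall on all 3 pi genes, and their cause was not tested. Gstp3 shares 73.8% of its aligned coding bases with Gstp1.

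Peroxiredoxins reduce hydrogen peroxide with a cysteine, and most of them are recycled by thioredoxin. All 6 peroxiredoxin changes were above 0, where 68.7% of all tested genes were, and none was called, with log2 changes from 0.01 (Prdx3) to 0.31 (Prdx6). Under median-ratio scaling and quantile normalization Prdx3 turned negative (-0.08 and -0.07), and Prdx1 was 0.02 under both. Prdx5, the most abundant in the gene table, was at 121, 137, 109, 122 and 121 RPKM in the KO-labelled and 111, 97.9, 112, 105 and 97.1 RPKM in the WT libraries. Only KO 7 fell within the WT range (log2 change 0.22, adjusted p = 0.107). Prdx6, which also reduces phospholipid hydroperoxides, was highest in KO 4 and KO 17 (51.5 RPKM in KO 17) but was 30.8 RPKM in KO 7, against 28.2 to 34.5 RPKM in WT.

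Glutathione is made in a first step by Gclc and Gclm, the catalytic and modifier subunits of glutamate-cysteine ligase, then by Gss, and is regenerated by Gsr. Gsr, the most abundant of the 4, was at 52.5, 43.8, 38.3, 42.2 and 45.2 RPKM in the KO-labelled and 40.0, 33.6, 35.2, 37.7 and 33.9 RPKM in the WT libraries. KO 7 alone fell within the WT range (log2 change 0.29, 95% interval 0.10 to 0.48, adjusted p = 0.0718). Gclc was 11.5 to 14.4 RPKM in the KO-labelled and 8.85 to 11.4 RPKM in the WT libraries without overlap (0.29, adjusted p = 0.0601). Its change was 0.20 under median-ratio scaling (adjusted p = 0.298). Gclm (0.07) and Gss (0.06) were near 0, and both turned slightly negative under median-ratio scaling (-0.01 and -0.02).

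Thioredoxin (Txn1) and its reductase (Txnrd1), the quinone reductase Nqo1 and haem oxygenase Hmox1 all had changes above 0, also under both scalings, and none was called (68.7% of all tested genes were above 0 without scaling). Txn1 was at 152, 202, 160.1, 196 and 166 RPKM in the KO-labelled and 158, 176, 193, 134 and 158 RPKM in the WT libraries, with overlap (log2 change 0.10, adjusted p = 0.652). Under median-ratio scaling its change was only 0.006 (adjusted p = 0.986), where the median of all tested genes was 0.008. Hmox1 ranged from 74.7 to 117 RPKM against 56.0 to 80.8 RPKM (0.43, 95% interval 0.11 to 0.74, adjusted p = 0.101). Nqo1 was 3.65 to 5.38 RPKM against 2.78 to 3.83 RPKM (0.28, adjusted p = 0.169), and Txnrd1 had a change of 0.22 (adjusted p = 0.340).

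Since several of these genes are textbook NRF2 targets, the core of the antioxidant response element, TGACNNNGC, was searched on both strands of the RefSeq promoter windows. These windows hold 250 bases before and 50 after the start. Sequence outside them was not searched, so a gene without a match may hold the element elsewhere. It stood in 8 of the 45 enzyme symbols matched (17.8%), namely Gsta3, Gstm5, Gstm7, Gclm, Prdx1, Mgst1, Txnrd1 and Sod1, against 14.0% of 27025 genes. Sod1 was the only one of the 8 that was called, and it was lower. Stretches of 4 of these promoters are shown on the gene's strand, 5′ to 3′, to set Sod1 beside 3 uncalled genes of glutathione and thioredoxin chemistry. The motif is in capitals and in each case reads on the opposite strand. The stretches lie at chr16:90220662-90220761 (Sod1), chr3:122245393-122245492 (Gclm), chr4:116685436-116685535 (Prdx1) and chr10:82859106-82859205 (Txnrd1, 1 of several listed starts), all on the plus strand of GRCm38.p6 (RefSeq).
Sod1: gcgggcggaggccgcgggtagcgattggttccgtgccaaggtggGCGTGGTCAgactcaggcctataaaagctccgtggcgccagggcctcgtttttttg
Gclm: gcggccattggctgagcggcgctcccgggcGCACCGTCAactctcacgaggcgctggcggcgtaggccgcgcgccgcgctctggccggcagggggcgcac
Prdx1: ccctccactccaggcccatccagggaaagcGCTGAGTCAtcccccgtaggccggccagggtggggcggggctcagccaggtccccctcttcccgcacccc
Txnrd1: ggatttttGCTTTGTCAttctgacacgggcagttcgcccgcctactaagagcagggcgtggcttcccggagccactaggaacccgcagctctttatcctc
The log2 changes of the 8 genes ran from -0.93 (Gsta3) to 0.53 (Gstm7), and those of Gclm, Prdx1 and Txnrd1 were 0.07, 0.11 and 0.22. With only Sod1 called, these signs do not tell whether genes with the motif shared a direction, and the part of the motif was not tested.

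The transcript table put several enzyme genes at other levels than the gene table. The summed transcripts of Gpx4 came to 601 RPKM in the KO-labelled and 608 RPKM in the WT libraries, where the gene table gave 36.2 and 34.2 RPKM, a ratio of 17.2. On transcript values Gpx4 was thus close to Gpx1, at 685 and 571 RPKM, instead of far below it. Mgst1 came to 613 and 719 RPKM on these values, below Gpx1 in the KO-labelled but above it in the WT group. The ratio was 10.4 for Mgst2, 9.58 for Gstt3, 7.83 for Prdx1 and 4.81 for Gclm. Ratios above 3 were found in 10 of the 42 tested enzyme genes (23.8%), against 16.6% of 14313 tested genes found in both tables, and the medians were 1.34 and 1.32. The order of levels among the enzymes therefore differed between the tables, while the KO to WT ratios of Gpx4 were 1.06 and 0.988.

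**Figure D4:**
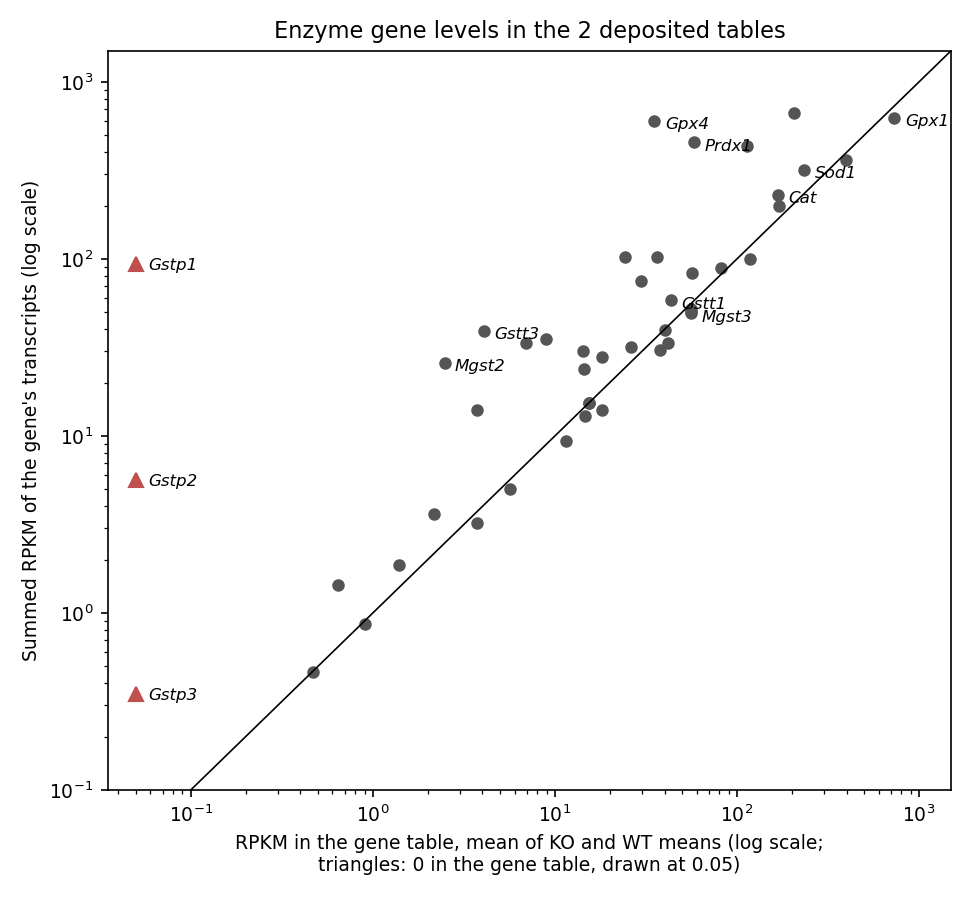
Level of the enzyme genes in the gene table (x axis, RPKM, mean of both group means) against the summed RPKM of their transcripts (y axis), both on log scales, with the line of equality. Apart from the pi genes, genes near 0 in either table are not drawn. Gpx4, Mgst2, Gstt3 and Prdx1 lie far above the line, and the triangles mark the pi genes, which the gene table lists at 0.

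When the test was repeated on summed transcripts, a choice made after seeing the files, Gstt1 rose by 0.98 (adjusted p = 0.00538), and Mgst3 fell by 1.09 (0.00363), Cat by 0.72 (0.00484) and Gstz1 by 0.62 (0.0305). Sod1 (-0.40, adjusted p = 0.0609) and Mgst2 (-0.44, adjusted p = 0.125) were not called. In that fit 0.896% of all genes were called higher and 1.57% lower. It tested 48 enzyme identifiers, with Gstp1 and Gstp2 each counted under both of their identifiers. Of single transcripts, 3 of 112 tested enzyme transcripts were called, where 0.544% of all 44475 tested transcripts were. These were ENSMUST00000001713 of Gstt1 (log2 change 0.96), ENSMUST00000028005 of Mgst3 (-1.09) and ENSMUST00000111168 of Cat (-0.85). The second protein-coding Cat transcript, ENSMUST00000028610, was at 96.0 ± 14.4 RPKM against 146 ± 19 RPKM (-0.61, adjusted p = 0.0958). Both Cat transcripts thus had negative changes. For Gstz1 (ENSMUST00000063117, -0.62, adjusted p = 0.10) and Sod1 (ENSMUST00000023707, -0.40, adjusted p = 0.143) a single coding transcript held nearly all of the signal.

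Genes that feed or control these enzymes were taken from 5 lists, with 94 genes tested, of which 9 were called higher and 5 lower, where 4.00% and 1.95% of all tested genes were. The higher calls depended on scaling, with 1 under median-ratio scaling (0.599% of all genes) and 2 under quantile normalization (0.875%). Under each scaling 5 list genes were called lower, where 2.43% and 2.30% of all genes were. In glutathione supply and turnover (22 tested), the NADPH source Me1, malic enzyme, fell by 1.62 (SE 0.23, adjusted p = 0.00358), from 38.5 ± 15.5 to 11.5 ± 1.1 RPKM. Ggt5, which cleaves glutathione conjugates outside the cell, rose by 0.40 (adjusted p = 0.0421), and was called without 1 of the 10 libraries and under neither scaling. The NADPH enzymes of the pentose phosphate pathway G6pdx (-0.09) and Pgd (-0.08) and the cystine carrier Slc7a11 (0.57, adjusted p = 0.244) were not called.

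Among thioredoxin and glutaredoxin partners (17 tested), glutaredoxin, Glrx, which removes glutathione from protein thiols, was the 1 gene called. It rose from 7.83 ± 1.07 to 12.9 ± 1.4 RPKM (log2 change 0.69, SE 0.10, adjusted p = 0.00426) and was called without each library and under both scalings. Among NRF2 control genes and targets outside the enzyme set (24 tested), Tkt, transketolase, fell by 1.03 and Ces1f, a carboxylesterase, by 1.04, while Osgin1 (0.52) and the epoxide hydrolase Ephx1 (0.38) rose. The rises of Osgin1 and Ephx1 were not called under either scaling. The gene of NRF2 itself, Nfe2l2, was at 46.5 ± 7.5 RPKM against 35.9 ± 2.4 RPKM (0.36, adjusted p = 0.0654), and its inhibitor Keap1 had a change of 0.07.

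Among sources of superoxide and hydrogen peroxide (16 tested), 3 genes were called higher and 2 lower. Aoc3, an amine oxidase of fat cells, fell by 0.71 (SE 0.10, adjusted p = 0.00301), from 86.3 ± 10.6 to 52.4 ± 5.3 RPKM. The mitochondrial amine oxidase Maob (0.50) and Ncf1 (0.38), a subunit of the phagocyte NADPH oxidase, rose. Ncf1 was called without each library in turn but not under median-ratio scaling (adjusted p = 0.0653), and Maob was called under neither scaling. Of 15 selenoprotein genes and factors, Selenot rose by 0.29 and Selenoi by 0.24, neither of them under a scaling. The adipocyte and neutrophil marker sums given above moved in the same libraries as these genes, and their part in the results was not tested.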

How the data were processed

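The authors deposited RPKM values in a table of genes and a table of transcripts. STAR 2.0.4b1, Subread, featureCounts 1.4.52 and bcl2fastq are named in the submitters' processing notes. Build, annotation and the program behind the transcript values are not given in those sources. The unit of both tables rests on their names. Rows repeated with equal values were merged, leaving 40503 genes and 84046 transcripts. All per-sample columns were used.

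Log2 of RPKM plus 0.5 was the input to limma 3.58.1 (R 4.3.3, statmod 1.5.0; robust eBayes with a trend; 2-sided), for the 17038 genes with at least 0.5 RPKM in at least 5 of 10 libraries. Changes are on the log2(RPKM + 0.5) scale, which understates those of low genes, and a call means a Benjamini-Hochberg adjusted p below 0.05 over all genes tested. Transcripts were fitted likewise. Every adjusted p of a gene or transcript comes from limma. Ratios within a library used RPKM without a pseudocount. Depth was worked out from the steps of the RPKM values with GENCODE M21 exon lengths, which gave whole reads, within 0.001, for 67.1% to 68.9% of low genes per library. The fit was first run on simulated reads with the same spread setting for every gene. That setting is simpler than these libraries, so the run checks the code only.

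The libraries are labelled as separate animals, and p-values measure the spread between these libraries only. The members and lists were chosen with earlier results of these data known. Values of every library are given for called genes and for the most abundant member of each family, and list genes are named if called, at most 4 a list by size of change. One list gene is not reported here. Uncalled list genes and the 8 ratios were chosen after their values were seen. Promoter windows are RefSeq's for GRCm38.p6, matched by symbol for 45 of 52. Alternatives were quantile normalization, median-ratio scaling, a filter at 1 RPKM or none, pseudocounts of 0.1 and 1, plain eBayes, array weights, animals numbered under 20 only, each library left out, and summed transcripts.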

Additional observations from a re-analysis of the deposited data

Results flagged for a closer look

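In 6 of the 84 groups of 5 libraries examined among the tested enzyme genes, 1 library lay far from the other 4 by Dixon's test, which flags about 1 in 20 groups by chance. Gstm1 was at 63.8 RPKM in WT 86, where the other WT libraries had 54.5 to 56.3 RPKM. Gstm7 was at 1.81 RPKM in the same library, where the others had 0.771 to 0.979 RPKM, and this gene was called higher only when WT 86 was left out. Mgst2 was at 3.54 RPKM in WT 9, above the 2.74 to 2.85 RPKM of the other WT libraries. Gpx7 was at 16.3 RPKM in WT 19, above 12.0 to 13.0 RPKM in the others. In the KO-labelled group Gpx4 was at 46.1 RPKM in KO 4, the library of greatest depth, above 32.3 to 34.9 RPKM. Nqo1 was at 5.38 RPKM in KO 1, above 3.65 to 4.02 RPKM in the others.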

How the results depend on the processing

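No paired analysis was possible because no animal number occurs in both groups. Without WT 86 and WT 89, 0 enzyme genes were called higher (main result 1) and 0 lower (main result 5) by limma, 0 enzyme transcripts (main result 3), 1 list gene higher (main result 9) and 211 genes in all (main result 1013), with fewer samples in the fit. Without a filter on low values, 2 enzyme genes were called lower, 3 list genes higher and 539 genes in all. Median-ratio scaling called 1 list gene higher and 516 genes in all, and quantile normalization 2 list genes higher, 541 genes in all and 5 enzyme transcripts. Summed transcripts called 3 enzyme genes lower, 3 list genes higher and 399 genes in all. Leaving out 1 library at a time gave 1 to 2 enzyme genes higher, 2 to 4 lower, 2 to 8 list genes higher, 4 to 6 lower, 0 to 3 enzyme transcripts and 394 to 1003 genes in all. The lowest totals came without KO 1 (394) and without WT 86 (448). Of the 838 log2 changes of the 42 genes under these alternatives, called genes kept the call and the sign in 85 and lost the call in 35, with 0 changes of sign. Uncalled genes stayed uncalled with the same sign in 689 and with the other sign in 28, and gained a call in 1 (Gstm7 without WT 86). The 28 came from 10 genes with changes of at most 0.10 in size (Gclm, Gpx4, Gpx8, Gss, Gstcd, Gstm5, Gstt2, Gstt3, Prdx3 and Txn1). The cause of these differences was not tested. Depth limits the lowest genes most, such as Gstm6 with 13 to 33 reads a library.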
